A study of Mus musculus with 40 samples.

Results

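Luminal cells line the ducts of the mammary gland, and 10 of their genes are described here in all 40 glands of the series. They are 4 keratin genes (Krt7, Krt8, Krt18 and Krt19), 4 genes of cell adhesion and tight junctions (Epcam, Cdh1, Cldn3 and Cldn7) and 2 further genes of the cell surface (Prom2 and Aqp5). The members were fixed by gene symbol, and all 10 of 10 were found among the 47729 genes of the deposited tables. All 40 mice were Balb/cJ and lost their ovaries at 21 d of age, and treatment began after 7 d of recovery. The estrogen groups received 200 nM estrogen in their drinking water with the control diet and were sampled at 60 h and 84 h. The CLA groups were fed a diet holding 2.7% fat as conjugated linoleic acid and were sampled at 108 h and 132 h. Each of these 4 groups had controls of its own time, fed the control diet (based on AIN 93G), so that every group lacked ovaries. Each of the 8 groups held 5 mice, which the series describes as biological replicates. One inguinal gland per mouse was used without its lymph node, so each library mixes ducts with the fat pad around them. Agent and time changed together, since no group received estrogen at 108 h or 132 h or CLA at 60 h or 84 h.

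Luminal cells are simple epithelium, in which type II keratins (Krt7, Krt8) pair with type I keratins (Krt18, Krt19) to build the filaments of the cytoskeleton. E-cadherin, encoded by Cdh1, joins neighbouring cells, and claudins such as Cldn3 and Cldn7 form the tight junctions that seal the duct lining. Epcam encodes a surface adhesion protein that is widely used to recognise epithelial cells and that binds claudin-7. Prom2 encodes prominin-2, a protein of membrane protrusions, and Aqp5 encodes a water channel of glandular epithelia. In the young gland, ducts grow into the fat pad under the action of ovarian estrogen, and after ovariectomy that growth is arrested. In bulk tissue, fewer cells of a type and less RNA per cell cannot be told apart.

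On the mouse build GRCm38, 4 of the genes lay on chromosome 15, namely Aqp5 (chr15:99590782-99594829), Krt7 (chr15:101411043-101430313), Krt8 (chr15:101996698-102004482) and Krt18 (chr15:102028180-102032027). Krt8 and Krt18 were neighbours, with 23697 bases between them. Cldn7 (chr11:69964779-69967885) and Krt19 (chr11:100140810-100148665) lay on chromosome 11. The others were Prom2 (chr2:127526473-127541467), Cldn3 (chr5:134986214-134987472), Cdh1 (chr8:106603351-106670246) and Epcam (chr17:87635979-87651129). Genes on the opposite strand overlapped Krt7 over 1269 bases (Gm671), Krt8 over 271 bases (Gm36026) and Cldn3 over 40 bases (Wbscr25). Whether the authors' counting used the strand is not stated, so the values of these 3 genes could hold reads of their partners.

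The promoters of the keratins are shown because Krt7, Krt8 and Krt18 share a 6-base motif, and that of Prom2 because this gene had the largest estrogen change and does not hold it. RefSeq (GRCm38.p6) listed promoters for 8 of the 10 members, and Krt19 and Cdh1 had no entry. The motif AGGTCA, which reads TGACCT on the other strand and is the core half-site of many nuclear receptors, stands in capitals, 5′ to 3′ on the gene's own strand, over 250 bases before to 50 after the start.
Krt7, chr15:101412153-101412452, plus strand: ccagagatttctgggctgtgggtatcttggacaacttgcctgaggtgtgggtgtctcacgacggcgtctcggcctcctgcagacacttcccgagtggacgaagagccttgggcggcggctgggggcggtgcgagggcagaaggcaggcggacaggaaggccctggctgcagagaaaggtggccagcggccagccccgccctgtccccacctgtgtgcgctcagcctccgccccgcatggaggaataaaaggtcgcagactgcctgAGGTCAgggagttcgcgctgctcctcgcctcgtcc
Krt8, chr15:102004293-102004592, minus strand: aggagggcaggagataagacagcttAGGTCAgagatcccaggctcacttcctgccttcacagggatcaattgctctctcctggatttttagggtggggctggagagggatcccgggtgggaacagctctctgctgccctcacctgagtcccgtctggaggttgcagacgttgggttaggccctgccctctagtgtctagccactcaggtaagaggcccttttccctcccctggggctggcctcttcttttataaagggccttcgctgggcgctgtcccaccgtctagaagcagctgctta
Krt18, chr15:102027966-102028265, plus strand: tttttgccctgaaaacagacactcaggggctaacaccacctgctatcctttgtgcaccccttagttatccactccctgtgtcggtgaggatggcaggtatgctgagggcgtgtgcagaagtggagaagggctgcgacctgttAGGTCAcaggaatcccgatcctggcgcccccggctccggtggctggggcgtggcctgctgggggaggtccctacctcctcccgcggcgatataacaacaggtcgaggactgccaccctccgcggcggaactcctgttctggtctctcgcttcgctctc
Prom2, chr2:127541368-127541667, minus strand: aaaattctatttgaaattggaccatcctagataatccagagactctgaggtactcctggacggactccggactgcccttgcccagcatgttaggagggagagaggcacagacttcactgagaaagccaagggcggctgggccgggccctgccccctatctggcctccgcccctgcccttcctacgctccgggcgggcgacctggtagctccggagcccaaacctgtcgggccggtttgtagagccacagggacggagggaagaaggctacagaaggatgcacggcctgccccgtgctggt
The match began 16 bases into the transcript in Krt7, 225 bases before the start in Krt8 and 108 bases before it in Krt18. Of the 8 members with a promoter, 4 held the motif on either strand (these 3 and Cldn7), against 16.3% of all 32851 promoters of the same length. The 8 members had 9 promoters and are counted by gene, whereas the shares of all promoters are by promoter. The full palindromic estrogen response element (GGTCA, any 3 bases, TGACC) was found in 0 of the 8, against 0.0700% of all promoters. The TATAAA motif, on either strand, was found in Krt8 alone of the 8, against 13.6% of all promoters. The response element holds most of the half-site within it, and these matches describe letters only.

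The libraries held 18183713 to 40026800 counts. Lowest counts per library were small for several members, with 3 reads of Aqp5, 5 reads of Cldn7 and 5 of Prom2, so single low glands carry wide counting error. In 9 libraries, genes of skin and hair reached a list mean of 1.99 to 6.34 log2 CPM (counts scaled to the library size after TMM), against −3.80 to 0.27 in the other 31. These 9 were 1 estrogen library at 60 h (replicate 5), 3 estrogen libraries at 84 h (2, 3 and 5), 2 controls at 108 h (1 and 2) and 3 controls at 132 h (1, 2 and 3), and none came from CLA-fed mice. The numbers in the sample titles fell into 4 runs, and all 10 estrogen libraries formed 1 run that held no control. Estrogen and that run therefore cannot be told apart.

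The mean over the 10 genes was highest in both estrogen groups. In log2 CPM it was 4.29 ± 0.58 (SD over 5 glands) with estrogen at 60 h, against 1.17 ± 1.32 in its controls. At 84 h it was 4.79 ± 0.37 with estrogen and 1.76 ± 1.48 in controls. With CLA it was 3.08 ± 1.42 at 108 h, against 3.26 ± 0.70 in controls, and 3.17 ± 1.23 at 132 h, against 2.79 ± 1.13 in controls. From high to low, the order of group means was estrogen 84 h, estrogen 60 h, control 108 h, CLA 132 h, CLA 108 h, control 132 h, control 84 h and control 60 h. Cdh1 was an exception by mean CPM, though not by mean log2 CPM. It averaged 26.6 CPM with estrogen at 60 h, against 28.8 CPM in controls at 108 h and 31.9 CPM in controls at 132 h. Its mean log2 CPM was 4.68 with estrogen at 60 h, 4.66 in controls at 108 h and 4.36 in controls at 132 h. Apart from the step between estrogen 60 h and control 108 h, neighbours in that order differed by less than the larger of their SDs, and the 4 groups of 108 h and 132 h differed from each other by less than their SDs. Per length, and as RPKM (reads scaled to gene length and depth), Krt19 was highest at 46.5 ± 11.3 with estrogen at 84 h, against 7.53 ± 6.11 in controls. Krt18 had 36.9 ± 9.48 RPKM with estrogen and 6.41 ± 5.95 RPKM in controls, and Krt8 had 34.1 ± 8.11 RPKM with estrogen and 4.88 ± 4.96 RPKM in controls. Epcam followed with 16.7 ± 4.91 RPKM with estrogen and 3.18 ± 3.04 RPKM in controls. Prom2 had 2.06 ± 0.66 RPKM with estrogen, against 0.189 ± 0.167 RPKM in controls, and Krt7 had 2.21 ± 0.55 RPKM with estrogen, against 0.317 ± 0.287 RPKM in controls. The lengths that counts and RPKM imply were 0.623 (Krt8) to 1.56 (Prom2) of the annotated exon length, so the order depends on the length used. Per kb of annotated exons, Krt19 was still highest at 84 h, but Krt8 had 21.2 CPM with estrogen and 3.26 CPM in controls, close to Epcam, which had 21.2 CPM with estrogen against 4.17 CPM in controls. The place of Krt8 above Epcam, and that of Prom2 as lowest with estrogen, are therefore uncertain.

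**Figure D1:**
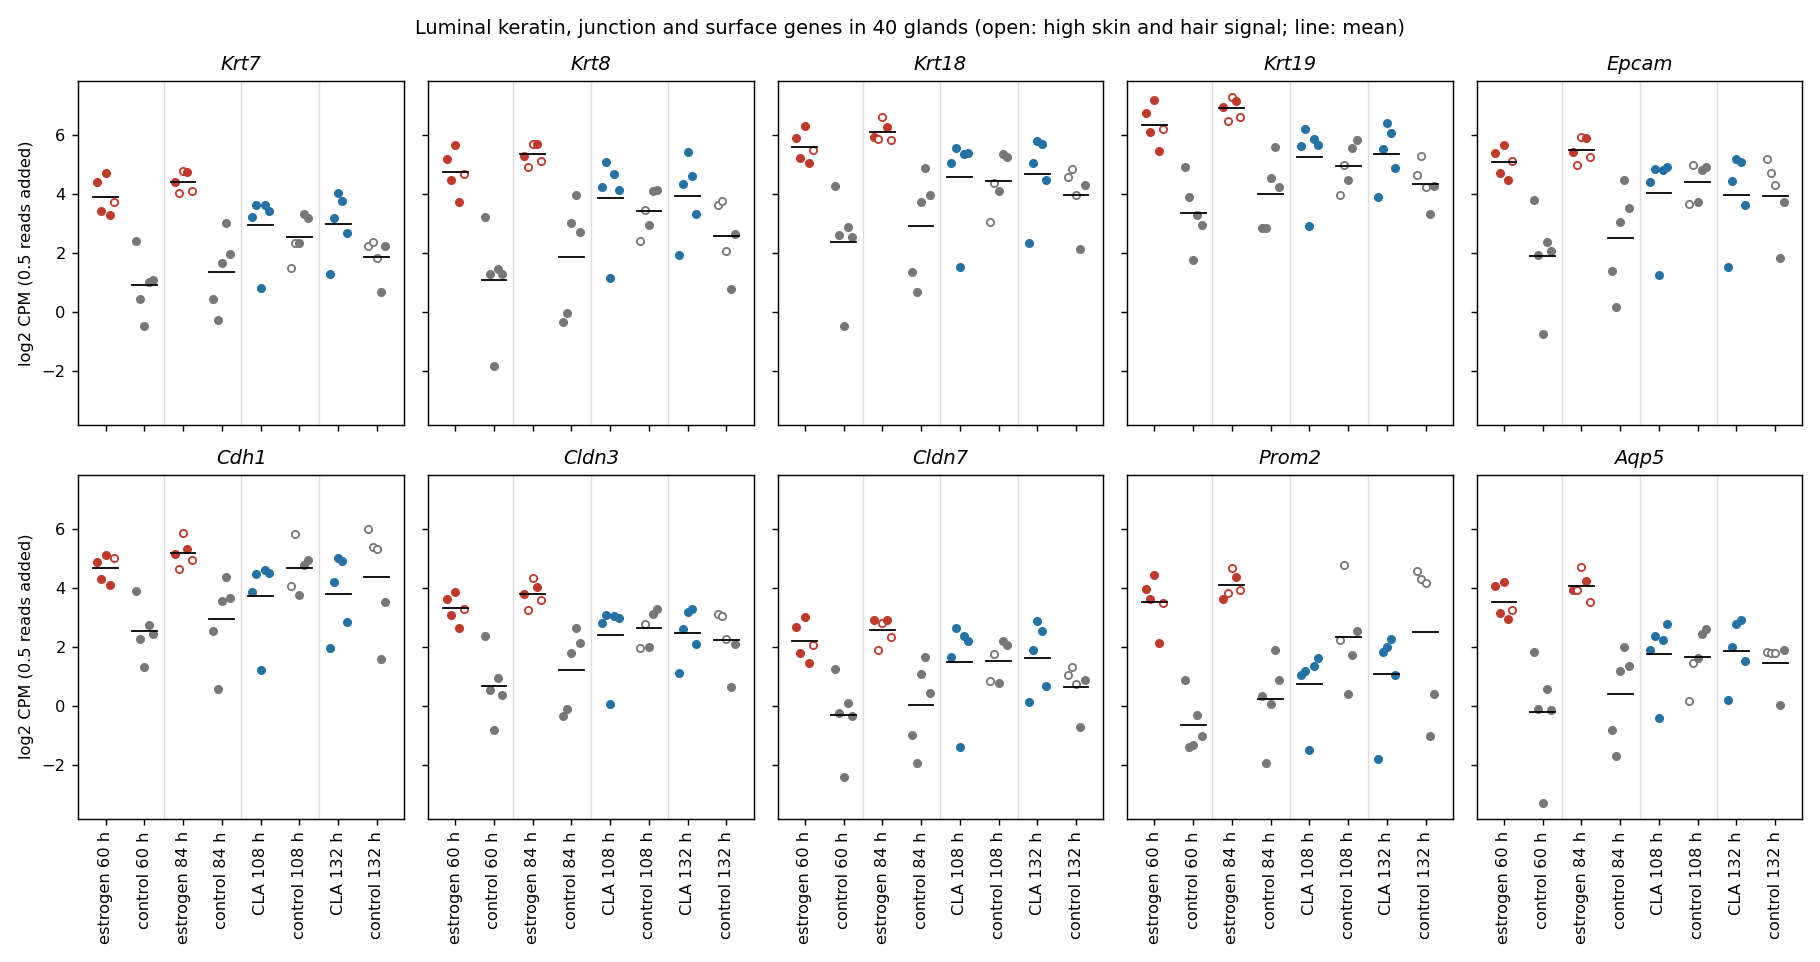
Each point is 1 gland, with its log2 CPM on the vertical axis and its group on the horizontal axis. Lines are group means and open points are the 9 libraries with a high skin and hair signal. For every gene the estrogen points at 60 h and 84 h lie above all 5 controls of the same time, while CLA and control points overlap.

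The level of the 10 genes differed between glands of 1 group, and they moved together. The summed CPM of the 10 genes spanned a 2.78-fold range with estrogen at 60 h, against 11.3-fold in controls, and a 1.82-fold range with estrogen at 84 h, against 10.9-fold in controls. With CLA it spanned 11.1-fold at 108 h, against 2.84-fold in controls, and 7.83-fold at 132 h, against 7.33-fold in controls. A single gland was often the extreme for the whole set. Replicate 3 of estrogen at 60 h was the highest for 10 of 10 genes and replicate 4 the lowest for 10 of 10. In controls at 60 h, replicate 1 was the highest for all 10 and replicate 3 the lowest for 9. Replicate 4 of the controls at 84 h was the highest for all 10. The gland of CLA replicate 3 at 108 h was the lowest of its group for all 10, as were CLA replicate 1 and control replicate 4 at 132 h. In CLA replicate 3 at 108 h the summed level was 21.6 CPM, against 162 to 241 CPM in the other 4 glands of its group.

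The spread within groups shrank when each gene was set against Epcam of the same library. The SD of log2 CPM within groups was 0.93 (Krt7) to 1.47 (Prom2), and that of the log2 ratio to Epcam was 0.30 (Krt18) to 0.54 (Krt19), with 0.88 for Prom2. Krt8 per Krt18, the partner keratins, had an SD of 0.31. Over the 40 libraries, each gene's correlation with the mean of the other 9 was 0.82 for Prom2, 0.90 for Cdh1 and 0.96 to 0.99 for the other 8. These correlations are descriptions over 40 libraries whose groups differ in level, and after subtraction of group means they were 0.75 for Prom2, 0.92 for Cdh1, 0.93 for Aqp5 and 0.95 to 0.99 for the other 7. Prom2 was thus the least coupled member.

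**Figure D2:**
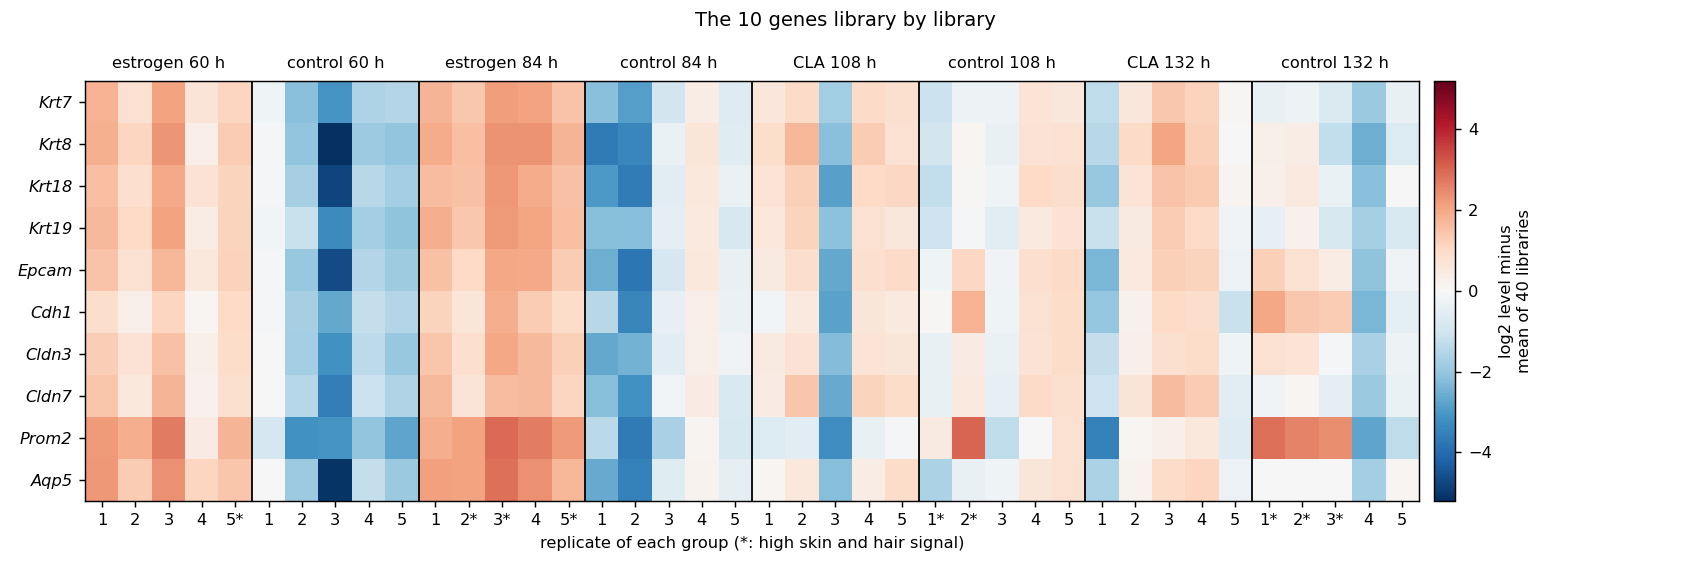
Colours show each gene's log2 CPM in each of the 40 libraries minus its mean over all 40, with genes in rows and libraries in columns. An asterisk marks the 9 libraries with a high skin and hair signal. Columns are mostly of 1 colour, and Cdh1 and Prom2 stand out as higher than the other genes in control replicate 2 at 108 h and control replicates 1 to 3 at 132 h.

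Estrogen was set against the control diet in glands that otherwise lacked ovarian hormone. At 60 h all 10 genes rose (edgeR quasi-likelihood test, Benjamini-Hochberg adjusted p under 0.05), while 6.49% of the 17248 genes tested were called and 4.07% were called higher. The log2 fold changes were 1.95 to 4.07 with a median of 2.70, against a median of −0.00 over all genes, with adjusted p from 0.0116 to 0.0443. At 84 h 8 of 10 rose, while 5.42% of 17180 genes were called and 3.45% were called higher, and the log2 fold changes were 1.85 to 3.44 with a median of 2.51. Epcam and Cdh1 missed the threshold at 84 h. At both times every estrogen gland lay above every control gland for 10 of 10 genes, a pattern held by 3.59% of all genes tested at 60 h and 4.79% at 84 h.

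Among the keratins, Krt8 had 36.3, 22.3, 50.2, 13.1 and 25.3 CPM in the 5 estrogen glands at 60 h, against 9.38, 2.45, 0.266, 2.73 and 2.43 CPM in the 5 controls. At 84 h it had 39.3, 30.2, 51.8, 51.1 and 34.8 CPM with estrogen, against 0.782, 0.953, 8.04, 15.7 and 6.51 CPM in controls. The lowest estrogen gland at 60 h, at 13.1 CPM, was above the highest control, at 9.38 CPM. The log2 fold change of Krt8 was 3.09 ± 0.71 (SE, adjusted p = 0.0205, edgeR) at 60 h and 2.69 ± 0.74 (adjusted p = 0.0423) at 84 h. Its partner Krt18 spanned 33.4 to 77.9 CPM with estrogen at 60 h, against 0.7103 to 19.2 CPM in controls, a log2 fold change of 2.69 ± 0.69. Krt19, the smallest keratin and the most abundant of the 10 per length, had 107, 67.9, 143, 43.4 and 73.7 CPM with estrogen at 60 h, against 30.4, 14.9, 3.37, 9.86 and 7.74 CPM in controls. At 84 h Krt19 spanned 88.4 to 157 CPM with estrogen and 7.11 to 47.9 CPM in controls. The means of Krt19 were 6.57-fold higher with estrogen at 60 h and 5.81-fold higher at 84 h. Krt7 spanned 9.73 to 25.9 CPM with estrogen at 60 h against 0.7103 to 5.31 CPM in controls, and 16.2 to 27.4 CPM with estrogen against 0.810 to 8.06 CPM in controls at 84 h, with log2 fold changes of 2.81 ± 0.55 and 2.64 ± 0.53. The 4 keratins rose at both times, with ratios of means of 6.44 to 8.53 at 60 h and 5.59 to 6.48 at 84 h.

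Junction and adhesion genes had smaller ratios of means than the surface genes, a difference that was not tested. Epcam had 41.9, 25.9, 50.2, 22.4 and 35.0 CPM with estrogen at 60 h, against 13.99, 3.81, 0.592, 5.22 and 4.15 CPM in controls. At 84 h it had 43.0, 31.3, 61.1, 59.1 and 38.0 CPM with estrogen, against 2.61, 1.10, 8.29, 22.3 and 11.4 CPM in controls. The groups did not overlap at either time, and the log2 fold change was 2.66 ± 0.64 (adjusted p = 0.0248, edgeR) at 60 h and 2.34 ± 0.72 (adjusted p = 0.0666) at 84 h. Cdh1, the E-cadherin gene, had 29.5, 19.6, 34.7, 17.0 and 32.3 CPM with estrogen at 60 h, against 14.8, 4.80, 2.52, 6.75 and 5.47 CPM in controls. At 84 h Cdh1 had 35.5, 24.8, 58.1, 39.7 and 30.8 CPM with estrogen, against 5.87, 1.48, 11.9, 20.4 and 12.5 CPM in controls. Its means were 3.87-fold higher at 60 h and 3.62-fold higher at 84 h, the smallest ratios of the 10 genes, and its log2 fold change was 1.95 ± 0.55 at 60 h and 1.85 ± 0.72 (adjusted p = 0.144, edgeR) at 84 h. The claudins rose at both times. Cldn3 spanned 6.30 to 14.7 CPM with estrogen at 60 h against 0.562 to 5.16 CPM in controls, and 9.42 to 20.2 CPM with estrogen against 0.782 to 6.19 CPM in controls at 84 h. Cldn7 spanned 2.74 to 8.03 CPM with estrogen at 60 h against 0.178 to 2.40 CPM in controls, and 3.69 to 7.56 CPM with estrogen against 0.238 to 3.16 CPM in controls at 84 h. The log2 fold changes were 2.30 ± 0.54 and 2.19 ± 0.55 for Cldn3 and 2.23 ± 0.61 and 2.06 ± 0.58 for Cldn7.

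The surface genes Prom2 and Aqp5 had the largest ratios at both times. Prom2 had 15.6, 12.3, 21.7, 4.41 and 11.2 CPM with estrogen at 60 h, against 1.82, 0.364, 0.385, 0.796 and 0.486 CPM in controls. At 84 h Prom2 had 12.3, 14.3, 25.6, 20.9 and 15.3 CPM with estrogen, against 1.24, 0.238, 1.02, 3.67 and 1.85 CPM in controls. Its means were 16.9-fold higher at 60 h and 11.0-fold higher at 84 h, with log2 fold changes of 4.07 ± 0.79 (adjusted p = 0.0116, edgeR) and 3.44 ± 0.87 (adjusted p = 0.0280). Aqp5, the water channel gene, had 16.8, 8.78, 18.1, 7.68 and 9.61 CPM with estrogen at 60 h, against 3.52, 0.927, 0.0888, 1.49 and 0.907 CPM in controls. At 84 h Aqp5 had 15.4, 15.1, 25.8, 18.6 and 11.6 CPM with estrogen, against 0.554, 0.286, 2.29, 3.96 and 2.52 CPM in controls. The groups did not overlap for either gene at either time. The log2 fold change of Aqp5 was 3.13 ± 0.66 at 60 h and 3.16 ± 0.58 (adjusted p = 0.00353, edgeR) at 84 h.

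The number of genes called rested on single glands. At 60 h leaving out 1 of the 10 glands left 4 to 10 members called, with 5 called without control replicate 2, 4 without control replicate 4 and 4 without estrogen replicate 1. At 84 h it left 3 to 9, namely 3 when control 1, control 2, estrogen 3 or estrogen 4 was dropped, 4 when control 5 was dropped, and 5 when control 3, estrogen 1 or estrogen 5 was. Without the libraries of high skin and hair signal, 8 of 10 members were called at 60 h (Cdh1 and Cldn7 were not), while 3.98% of all genes were. At 84 h that leaves 2 estrogen glands against 5 controls, and 0 of 10 were called (all 10 had an unadjusted p under 0.05), while 1.73% of all genes were. The log2 fold changes at 84 h were then 1.85 to 3.34, close to those with all glands. In the fit to all 40 libraries, the estrogen effect at 84 h minus that at 60 h was −0.64 to 0.02 log2 units, with 0 of 10 members called (edgeR, 0 with an unadjusted p under 0.05) and 0.0056% of all genes called. DESeq2 also called 0 of 10.

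**Figure D3:**
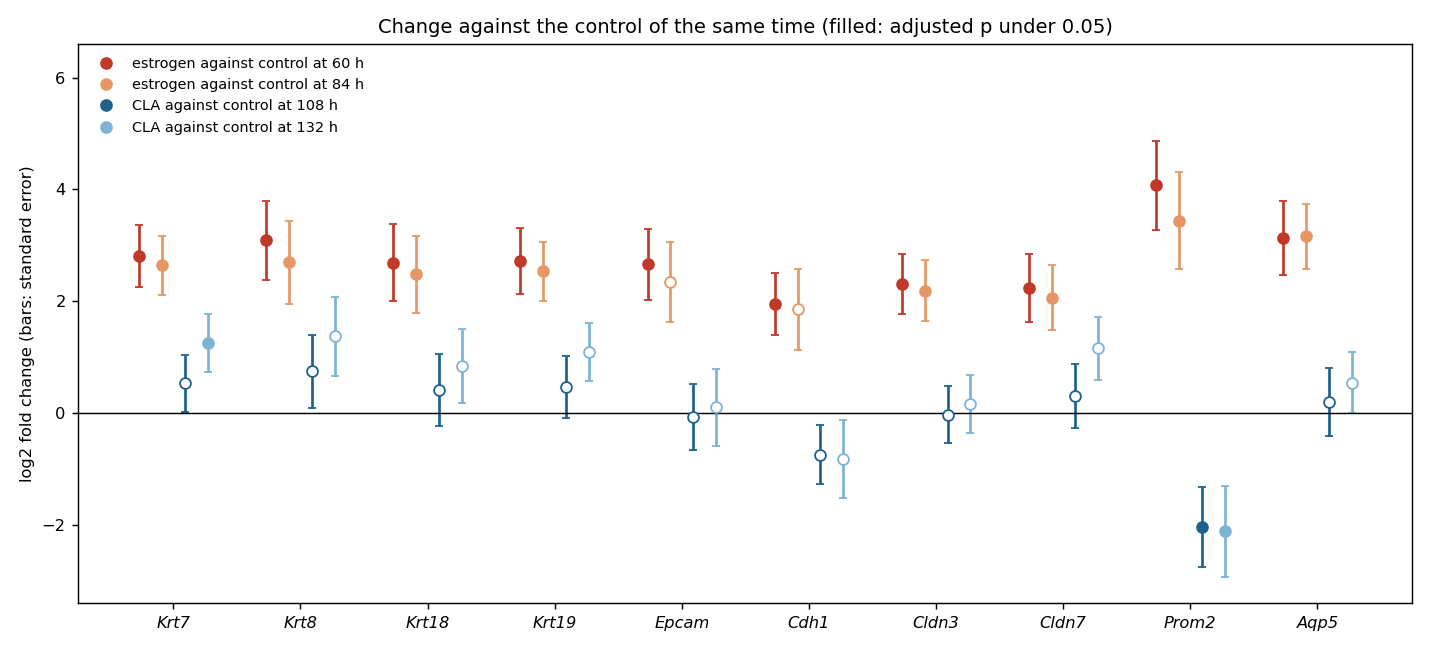
Points are log2 fold changes from edgeR, with standard errors as bars, for each of the 10 genes (horizontal axis) in each comparison (colour). Filled points have an adjusted p under 0.05. All 20 estrogen points lie at 1.85 or above, and the CLA points lie between −2.12 and 1.37.

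CLA was set against the control diet to describe the gland without ovaries under this dietary fat, which the series' title names as a cause of growth without estrogen. At 108 h 0 of 10 members rose and 1, Prom2, fell, while 47.9% of all genes were called, 24.9% higher and 23% lower. At 132 h 1 rose (Krt7) and 1 fell (Prom2), while 56% of all genes were called, 27% higher and 29% lower. The CLA and control groups overlapped for 10 of 10 genes at both times. With the libraries of high skin and hair signal left out, 0 of 10 were called at either time (edgeR, 0 with an unadjusted p under 0.05), while 42.2% of all genes were at 108 h and 41.8% at 132 h. The median log2 fold change of the 10 with all glands was 0.25 at 108 h and 0.69 at 132 h, against −0.01 and −0.03 over all genes.

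The keratins had positive but mostly uncalled values with CLA. Krt8 had 19.0, 33.9, 2.24, 25.5 and 17.7 CPM with CLA at 108 h, against 5.31, 10.9, 7.71, 17.1 and 17.7 CPM in controls. At 132 h Krt8 had 3.77, 20.1, 42.3, 24.3 and 9.96 CPM with CLA, against 12.5, 13.5, 4.17, 1.71 and 6.22 CPM in controls. In both groups fed CLA, 4 of 5 glands stood above the control mean and 1 stood below it. The log2 fold change of Krt8 was 0.74 ± 0.65 at 108 h and 1.37 ± 0.71 (adjusted p = 0.112, edgeR) at 132 h. Krt7 had 2.43, 9.19, 16.4, 13.5 and 6.32 CPM with CLA at 132 h, against 4.71, 5.15, 3.59, 1.59 and 4.67 CPM in controls. It rose by 1.25 ± 0.52 log2 units (adjusted p = 0.0478, edgeR), with 4 of 5 CLA glands above the highest control. That call held without CLA replicate 1 or 5 and was lost without any 1 of the other 8 glands, with adjusted p up to 0.137. Its value was 1.57 (adjusted p = 0.178) without the libraries of high skin and hair signal. The log2 differences of Krt8 within runs of title numbers were 0.57 (3 CLA and 2 control glands) and 0.68 (2 and 3) at 108 h, and 0.19 (3 and 2), 3.17 (1 and 2) and 0.68 (1 and 1) at 132 h. Within the same runs, the log2 differences of Krt7 at 132 h were 0.54, 2.49 and 0.43. With the run as a term in the fit its value was 1.22 (adjusted p = 0.0880, edgeR), no longer called. Krt19 had a log2 fold change of 0.46 ± 0.56 at 108 h and 1.09 ± 0.51 (adjusted p = 0.0797) at 132 h, and Krt18 of 0.41 ± 0.64 and 0.84 ± 0.66.

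None of the 4 adhesion and junction genes was called with CLA. Epcam had 21.2, 28.4, 2.37, 28.1 and 30.1 CPM with CLA at 108 h, against 12.8, 31.8, 13.2, 27.8 and 29.8 CPM in controls. At 132 h Epcam had 2.87, 21.7, 35.9, 34.1 and 12.2 CPM with CLA, against 36.0, 25.9, 19.7, 3.53 and 13.3 CPM in controls, and no CLA gland exceeded the highest control at either time. Its log2 fold change was −0.07 ± 0.59 at 108 h and 0.10 ± 0.68 at 132 h. Cdh1 had 14.5, 22.4, 2.32, 24.3 and 22.7 CPM with CLA at 108 h, against 16.5, 56.2, 13.5, 27.4 and 30.4 CPM in controls. At 132 h Cdh1 had 3.86, 18.4, 32.4, 29.7 and 7.12 CPM with CLA, against 63.3, 41.8, 40.0, 3.0004 and 11.5 CPM in controls. Cdh1 did not pass the test, with log2 fold changes of −0.75 ± 0.53 and −0.82 ± 0.70. Without the libraries of high skin and hair signal the values at 132 h, where 2 controls remained, were 1.31 (adjusted p = 0.372) for Epcam and 1.30 (adjusted p = 0.321) for Cdh1, whose direction turned. Within runs of title numbers at 108 h, the log2 differences were −0.84 and 0.39 for Epcam and −1.74 and 0.07 for Cdh1, so neither gene kept its sign. Cldn3 had log2 fold changes of −0.03 ± 0.51 and 0.16 ± 0.53, and Cldn7 of 0.31 ± 0.57 and 1.16 ± 0.57 (adjusted p = 0.0911 at 132 h).

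Prom2 was the only member that fell with CLA. It had 2.05, 2.27, 0.347, 2.56 and 3.10 CPM with CLA at 108 h, against 4.66, 27.3, 1.33, 3.34 and 5.79 CPM in controls. At 132 h it had 0.269, 3.52, 3.99, 4.81 and 2.07 CPM with CLA, against 24.0, 19.7, 17.8, 0.471 and 1.32 CPM in controls. The controls fell into a high and a low set, with 27.3 CPM in 1 gland at 108 h and 17.8 to 24.0 CPM in 3 glands at 132 h. These 4 were libraries with a high skin and hair signal. The remaining control with that signal, replicate 1 at 108 h, had 4.66 CPM, below the 5.79 CPM of replicate 5 without it. A high signal and a high Prom2 level therefore did not always go together. The log2 fold change was −2.05 ± 0.72 (adjusted p = 0.0251, edgeR) at 108 h and −2.12 ± 0.81 (adjusted p = 0.0348) at 132 h. Without the libraries of high skin and hair signal it was −0.76 (adjusted p = 0.374) at 108 h and 1.66 (adjusted p = 0.209) at 132 h, where 2 controls remained. Without control replicate 2 alone, the value at 108 h was −0.88 (adjusted p = 0.222), and without CLA replicate 3 alone it was −1.76, no longer called. At 132 h the call was lost without any 1 of control replicates 1 to 3 or CLA replicates 1, 2, 3 and 5, with values of −2.25 to −1.76. Within runs of title numbers the log2 differences at 108 h were −3.24 (3 CLA and 2 control glands) and −0.07 (2 and 3). At 132 h they were −3.76 (3 and 2), 0.69 (1 and 2) and 0.63 (1 and 1). With the run as a term in the fit, Prom2 was no longer called, at −1.85 (adjusted p = 0.115, edgeR) at 108 h and −1.83 (adjusted p = 0.192) at 132 h. The most negative within-run values came from the run whose control glands all had a high skin and hair signal. Aqp5 had 1.12, 3.99, 6.82, 7.60 and 2.84 CPM with CLA at 132 h, against 3.53, 3.42, 3.44, 1.0001 and 3.75 CPM in controls, and its log2 fold change was 0.19 ± 0.61 at 108 h and 0.54 ± 0.55 at 132 h.

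**Figure D4:**
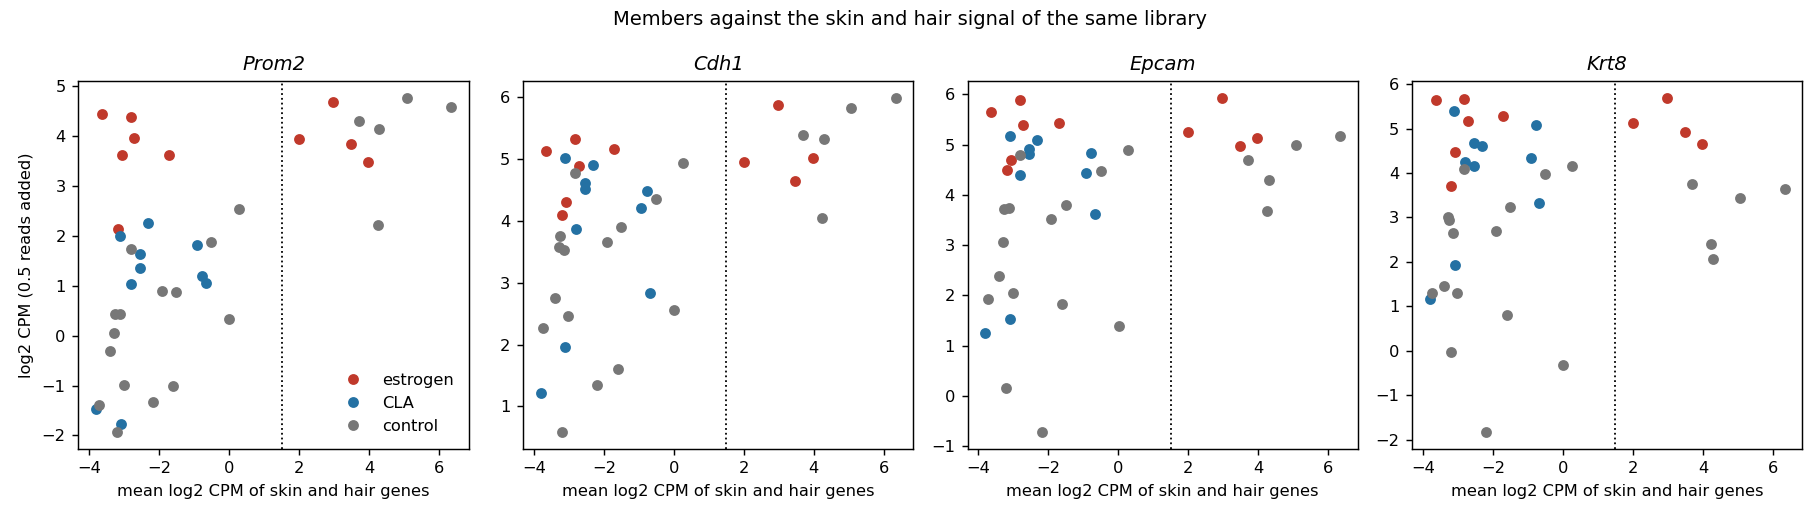
Each point is 1 library, with the mean log2 CPM of the skin and hair genes on the horizontal axis, the log2 CPM of the named member on the vertical axis and the agent as colour. The dotted line is the threshold of 1.5 for a high signal. Control points to its right reach the levels of estrogen glands for Prom2. They do so for Cdh1 too, except control replicate 1 at 108 h (16.5 CPM, against 17.0 CPM in the lowest estrogen gland). For Epcam some of these control points do and others lie below. For Krt8 the same control points lie near or below the lowest estrogen glands. Some control points to the left of the line also reach estrogen levels. At 108 h these had up to 5.79 CPM of Prom2, 30.4 of Cdh1, 29.8 of Epcam and 17.7 of Krt8. The lowest estrogen glands had 4.41, 17.0, 22.4 and 13.1 CPM.

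At 132 h every member had a higher mean in all 5 controls than in the 2 without a high skin and hair signal. The widest gaps were those of Prom2 and Cdh1. Those 2 included replicate 4, the lowest control of its group for all 10 genes, and its part in the gaps was not tested. At 108 h only Prom2 and Cdh1 had a higher mean in all 5 controls than in the 3 without the signal. Prom2 averaged 12.6 ± 11.0 CPM in all 5 controls at 132 h, and 0.897 ± 0.602 CPM in the 2 controls without the signal. Cdh1 averaged 31.9 ± 24.5 CPM in all 5 and 7.25 ± 6.01 CPM in those 2. In the same controls, Epcam averaged 19.7 ± 12.3 CPM in all 5 and 8.42 ± 6.92 CPM in those 2. For Krt8 the means were 7.60 ± 5.16 CPM in all 5 and 3.96 ± 3.19 CPM in those 2, and for Cldn3 5.51 ± 2.98 CPM and 2.88 ± 1.91 CPM. Krt18 averaged 18.4 ± 9.20 CPM in all 5 and 12.0 ± 10.7 CPM in those 2. Krt7 averaged 3.94 ± 1.44 CPM in all 5 and 3.13 ± 2.18 CPM in those 2. At 108 h Prom2 averaged 8.49 ± 10.7 CPM in all 5 controls and 3.49 ± 2.24 CPM in the 3 without the signal. For Cdh1 these means were 28.8 ± 16.9 CPM and 23.8 ± 9.03 CPM. Every other member had a lower mean in all 5 than in those 3. For Krt8 the means were 11.7 ± 5.54 CPM and 14.2 ± 5.60 CPM, and for Epcam 23.1 ± 9.30 CPM and 23.6 ± 9.04 CPM. Keratinocytes of skin and hair also make E-cadherin. With CLA, 0 of 5 glands had the signal at either time. Of the skin and hair genes tested, 12 of 15 fell at 108 h (23% of all genes did) and 17 of 19 at 132 h (29% of all genes). With estrogen the signal was present in 1 of 5 glands at 60 h and 3 of 5 at 84 h. Of those genes, 0 of 15 rose at 60 h (4.07% of all genes did) and 1 of 19 at 84 h (3.45% of all genes). At 60 h the list mean was −3.64 to 3.98 log2 CPM with estrogen and −3.73 to −1.51 in controls. The 4 estrogen glands at 60 h without the signal had 4.41 to 21.7 CPM of Prom2, against at most 1.82 CPM in controls, and the log2 fold change without the libraries of high signal was 4.12 (adjusted p = 0.00823), as large as with all glands.

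The effects of the agents differed for several members. CLA at 108 h minus estrogen at 60 h was negative for all 10 genes and called for 7 (all but Krt8, Krt18 and Cldn7), while 32.1% of all genes were called and 14.9% were called lower. It was −6.12 ± 1.06 log2 units for Prom2, −2.94 ± 0.89 for Aqp5, −2.73 ± 0.86 for Epcam, −2.70 ± 0.76 for Cdh1 and −2.33 ± 0.73 for Cldn3. CLA at 132 h minus estrogen at 84 h was negative for each of the 10 and called for 4 (Prom2, Aqp5, Cdh1 and Cldn3), while 38% of all genes were called and 18.9% were called lower. It was −5.56 ± 1.19 for Prom2 and −2.62 ± 0.78 for Aqp5. In the late pair leaving out 1 gland left 2 to 7 members called: 2 without any 1 of control replicates 1 to 3 at 84 h or 1 to 3 at 132 h, CLA replicates 1, 2 and 5, or estrogen replicates 1, 3, 4 and 5, and 7 without control replicate 4 at 84 h. Without the libraries of high skin and hair signal, 0 of 10 were called in the late pair (edgeR, 0 with an unadjusted p under 0.05) and 7 in the early one, while 19.7% and 27.5% of all genes were. Agent and time differ together in these contrasts, so they cannot be told apart. The CLA effect at 132 h minus that at 108 h was −0.06 to 0.86, with 0 of 10 called (edgeR and DESeq2, 0 with an unadjusted p under 0.05 by edgeR) and 0% of all genes called.

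The 4 control groups were also compared with each other. Epcam had 13.99, 3.81, 0.592, 5.22 and 4.15 CPM in controls at 60 h, 2.61, 1.10, 8.29, 22.3 and 11.4 CPM at 84 h, 12.8, 31.8, 13.2, 27.8 and 29.8 CPM at 108 h and 36.0, 25.9, 19.7, 3.53 and 13.3 CPM at 132 h. Any difference among the 4 control groups was called for 2 members, Prom2 (adjusted p = 0.00373, edgeR) and Cdh1 (adjusted p = 0.0350), while 13.4% of all genes were called, so the share of members was near that of all genes. Epcam (adjusted p = 0.0870) and Cldn3 (adjusted p = 0.0945) missed the threshold. Without the libraries of high skin and hair signal 0 of 10 were called (edgeR, 1 with an unadjusted p under 0.05), while 0.483% of all genes were. Leaving out 1 gland left 4 members called without replicate 1 at 60 h, and 1 without any of the other 60 h controls, replicate 1 at 84 h, replicate 2 at 108 h or replicates 1 to 3 at 132 h. Of the 5 controls at 60 h, 4 shared 1 run of title numbers, in which Epcam averaged 3.44 CPM, against 13.99 CPM in the other gland, so time and run are mixed there. With the 20 controls of all times as the control, a choice made after seeing the data, 8 members rose with estrogen at 60 h (3.78% of all genes rose) and 9 at 84 h (6.87%). With CLA 5 rose at each time (the 4 keratins and Cldn7), while 30% of all genes rose at 108 h and 31.2% at 132 h.

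Since the members' level varied between glands, each gene was also set against Epcam of its own library. With estrogen the log2 ratios of the other 9 genes to Epcam differed from controls by −1.04 to 0.98 at 60 h and −0.73 to 0.88 at 84 h, less than the levels did. The log2 ratio of Krt18 to Epcam was 0.52 ± 0.10 with estrogen at 60 h and 0.48 ± 0.15 in controls (SD, n = 5), and at 84 h it was 0.61 ± 0.19 with estrogen and 0.40 ± 0.27 in controls. That of Prom2 was −1.54 ± 0.50 with estrogen and −2.52 ± 1.10 in controls at 60 h, and −1.40 ± 0.26 with estrogen and −2.27 ± 0.75 in controls at 84 h. That of Aqp5 was −1.55 ± 0.20 with estrogen and −2.11 ± 0.28 in controls at 60 h, and −1.43 ± 0.28 with estrogen and −2.11 ± 0.27 in controls at 84 h. Cdh1 had 0.692 to 0.921 reads per Epcam read with estrogen at 60 h, against 1.06 to 4.25 in controls, a pattern of no overlap that 89.8% of all genes held. The highest of these came from control replicate 3, with 20 Epcam reads, and the other 4 controls had 1.06 to 1.32. At 84 h Cdh1 had 0.671 to 0.950 reads per Epcam read with estrogen, against 0.915 to 2.25 in controls, and the groups overlapped. The ratios of Cldn3 and Cldn7 to Epcam were also lower with estrogen at both times, and uncalled. With limma on these ratios, 0 of 9 members were called at either time (0 with an unadjusted p under 0.05), while 97.9% of all genes were called at 60 h and 96% at 84 h. Nearly all of those were lower, since Epcam itself rose. The variation of Epcam enters every gene's ratio in this test and widens the shared variance. For Aqp5 at 84 h its SE was 0.87 log2 units, against SDs of 0.28 and 0.27 within the 2 groups. The test therefore cannot show that the members' ratios were unchanged.

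With CLA, keratin ratios to Epcam were compared with those of controls. Krt8 had 0.712 to 1.31 reads per Epcam read with CLA at 132 h, against 0.212 to 0.521 in controls, and 0.589 to 1.20 with CLA against 0.342 to 0.614 in controls at 108 h. Krt18 had 1.503 to 1.83 reads per Epcam read with CLA at 132 h, against 0.667 to 1.47 in controls. At 108 h Krt18 had 1.20 to 1.67 with CLA against 0.649 to 1.47 in controls, and the groups overlapped. The ratios of Krt8 and Krt18 did not overlap between groups at 132 h, a pattern with CLA above controls that 0.733% of all genes held. At both times, the lowest Krt18 ratios in controls, 0.649 to 1.10, were those of the 5 libraries with a high skin and hair signal. Limma on the ratios called 0 of 9 members at 108 h and 0 at 132 h (0 with an unadjusted p under 0.05 at either time), while 0.655% and 1.25% of all genes were called. In that test, as for estrogen, the variation of Epcam enters every gene's ratio and widens the shared variance. A fit added after seeing the data, edgeR with the log2 CPM of Epcam as a covariate, called 6 of 9 at 108 h (48.2% of all genes) and 7 of 9 at 132 h (57% of all genes). In it Krt7, Krt8, Krt18 and Krt19 rose at both times and Cldn7 at 132 h, and Cdh1 and Prom2 fell at both times. The value of Krt8 was 0.84 ± 0.19 (adjusted p = 0.00135) at 108 h and 1.27 ± 0.25 (adjusted p = 0.000394) at 132 h, and that of Krt19 was 0.56 ± 0.22 and 0.96 ± 0.19. Without the libraries of high skin and hair signal the same fit called 1 of 9 at 108 h (42.3% of all genes), Krt8 (0.61 ± 0.19, adjusted p = 0.0171). At 132 h it then called 3 of 9 (39.5% of all genes), namely Krt8 (1.04 ± 0.37, adjusted p = 0.0438), Krt7 (0.61 ± 0.15) and Krt19 (0.80 ± 0.25), and no longer Cdh1 or Prom2. Krt18 was not called in it, at 0.15 ± 0.08 (adjusted p = 0.162) at 108 h and 0.23 ± 0.16 (adjusted p = 0.283) at 132 h. For estrogen the covariate fit called 0 of 9 at 60 h (0% of all genes, 1 of 9 with an unadjusted p under 0.05) and 2 of 9 at 84 h (0.483% of all genes), Krt7 (0.98 ± 0.19) and Aqp5 (1.38 ± 0.26). Epcam did not overlap between estrogen and control glands, so that fit cannot separate the agent from Epcam there.

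**Figure D5:**
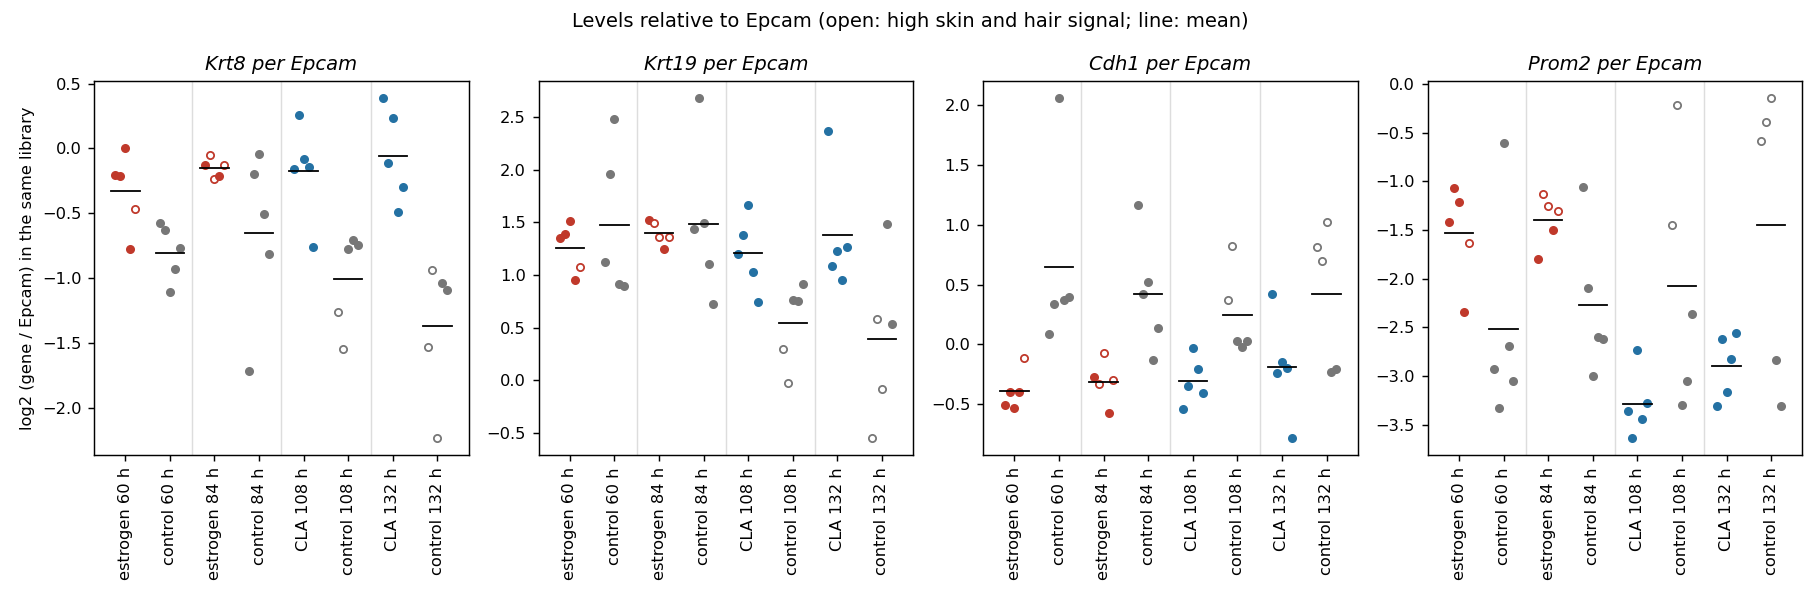
Points are the log2 ratio of a gene to Epcam in each library (vertical axis) by group (horizontal axis), with group means as lines and open points for libraries with a high skin and hair signal. Krt8 per Epcam is higher with CLA at 132 h than in any control of that time, as for 0.733% of all genes. Cdh1 per Epcam is lower with estrogen at 60 h than in any control of that time, as for 89.8% of all genes.

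A list of 50 other genes was chosen as genes that epithelium uses, and 48 were tested. It held genes of junctions, polarity and the cell surface, keratins, grainyhead transcription factors and genes that stratified epithelium also uses (Ppl, Evpl, Perp). With estrogen at 60 h, 20 rose (4.07% of all genes did) and 0 fell, with a median log2 fold change of 1.39, against −0.00 over all genes. At 84 h, 4 rose (3.45% of all genes) and 1 fell, with a median of 1.38, against −0.01. Those with the smallest p at 60 h were Tmprss2 (a transmembrane serine protease, 3.48 ± 0.70), Prss8 (prostasin, 2.23 ± 0.47), Cd24a (1.10 ± 0.24), Dsg2 (a desmosomal cadherin, 2.50 ± 0.57), Ocln (occludin, 1.89 ± 0.45) and Pkp2 (plakophilin 2, 0.56 ± 0.13). At 84 h Tmprss2, Spint2, Cd24a and Lsr rose and Tjp1, a tight junction scaffold, fell by 0.31 ± 0.07. With CLA 1 rose and 21 fell at 108 h, while 24.9% of all genes rose and 23% fell, and the list's median was −0.87. At 132 h 2 rose and 23 fell, while 27% of all genes rose and 29% fell, and the median was −0.97. Those with the smallest p at 132 h were Tjp1 (−0.85 ± 0.07), Jup (plakoglobin, −0.97 ± 0.11), F11r (a junctional adhesion molecule, −0.48 ± 0.06), Grhl1 (a grainyhead transcription factor, −2.09 ± 0.39), Ppl (periplakin, −2.97 ± 0.61) and Krt80 (a keratin, −2.04 ± 0.44), and at 108 h they were Tjp1, Jup, F11r, Ppl, Grhl3 and Cldn1. Several of these are also made by skin, whose signal was low in all CLA glands, and its part in these values was not tested. In the fit with 132 h, Tjp1, Jup and F11r averaged 7.21, 7.56 and 6.28 log2 CPM, against 4.59 for Epcam. Their SEs there were far smaller than the 0.68 of Epcam, so they did not share its spread between glands. The part of cells other than luminal ones in these falls was not tested.

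Markers of other cell types were also tested, and their counts are given beside the shares of all genes. Of 13 basal and myoepithelial genes, which mark the outer layer of the ducts, 2 rose with estrogen at 60 h and 2 at 84 h. Of all genes, 4.07% rose at 60 h and 3.45% at 84 h. The summed levels of the 13 were 617.7 to 845 CPM with estrogen against 446 to 613 CPM in controls at 60 h. At 84 h they were 660 to 1032 CPM with estrogen against 395 to 649 CPM in controls. With CLA 6 fell at 108 h (23% of all genes did) and 7 at 132 h (29% of all genes), and none of the 13 rose. Of 7 genes of milk secretion and its control, 4 were tested. With estrogen 3 rose at 60 h (4.07% of all genes did) and 0 at 84 h (3.45% of all genes). Of 8 macrophage genes, 8 rose with CLA at each time (24.9% and 27% of all genes did), with summed levels of 2499 to 3875 CPM with CLA against 824 to 1607 CPM in controls at 108 h, and 2571 to 4939 CPM with CLA against 554 to 1052 CPM in controls at 132 h. Of 9 genes of mature adipocytes, 8 fell with CLA at each time (23% and 29% of all genes did). Their summed levels at 108 h were 11992 to 16222 CPM with CLA against 17908 to 22366 CPM in controls. Of 6 fibroblast genes 2 rose with CLA at 108 h (24.9% of all genes did) and 6 at 132 h (27% of all genes). Of 6 endothelial genes 5 fell with CLA at 108 h (23% of all genes did) and 4 at 132 h (29% of all genes). CPM are shares of each library, and the part of these cell types in the members' values was not tested.

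Genes outside the set followed it closely across libraries. Of 15359 genes compared over the 40 libraries, 70 had a correlation above 0.9 with the mean log2 CPM of the 10 members. Those nearest were Vtcn1 (0.97), Marveld3 (0.97), BC006965 (0.96), Tmprss2 (0.96), Wfdc2 (0.96), Gipc2 (0.95), Myb (0.95) and Irx1 (0.95). After subtraction of group means they were Marveld3 (0.97), Wnt7b (0.97), Wfdc2 (0.96), Cgn (0.96), Fxyd3 (0.95), Vtcn1 (0.95), Gipc2 (0.95) and Extl1 (0.95). The points share libraries, depth and groups, so these values are descriptions.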

How the data were processed

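RNA was measured in 40 mammary glands by RNA-seq of stranded poly(A) libraries, per the labels' protocols. The authors deposited read counts per gene, and RPKM values in matching tables, for 60 h and 108 h together and for 84 h and 132 h together. The genome build was GRCm38, per the submitters' processing notes. For the aligner, the counter and the annotation, a name is not given in the sources used here.

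From the counts, edgeR 4.0.16 in R 4.3.3 gave quasi-likelihood tests (robust, TMM scaling, filterByExpr with a minimum count of 10 and total of 15), with Benjamini-Hochberg adjustment over all genes and a threshold of 0.05. The 4 groups of a table shared 1 spread. Differences between times and controls across times used all 40 libraries. Log2 CPM values add 0.5 reads. Ratios to Epcam were tested with limma 3.58.1. SDs reflect the spread between the 5 glands of a group. The p-values rest on a spread between glands that is pooled over the groups of a fit and drawn toward that of other genes. RPKM served levels per length and an alternative. Depth was 18183713 to 40026800 counts per library, and counts agreed within sampling noise in none of 780 pairs of libraries (lowest chi-square per gene 12.6). On simulated counts with 100 genes changed by 2 log2 units, edgeR called 94% of them for estrogen at 60 h (17248 genes, 7 unchanged genes called). At 84 h it called 89% (17180 genes, 4 called). The changed genes were drawn at random from all genes tested, and 100 others were changed by 3 log2 units. These shares do not describe the members, whose SEs at 84 h were 0.53 (Krt19) to 0.87 (Prom2) log2 units.

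Alternatives were other scalings (RLE, upper quartile), filters, DESeq2 1.42.0, limma on log2(RPKM + 0.1) and log2(RPKM + 1), 2 groups alone, leaving out each gland, leaving out 9 libraries with skin and hair genes at a mean of 1.5 log2 CPM or more, and the run of title numbers. The Epcam covariate, the 20 controls and the run term among controls were added after seeing the data. Replicates are numbered in the order of the series. All 10 members are named in every comparison, with up to 6 related genes of smallest p among those called, and the 8 genes most correlated with the members. The members and lists were chosen with earlier results of these data known.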

Additional observations from a re-analysis of the deposited data

Results flagged for a closer look

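In 80 sets of 5 glands (10 genes in 8 groups), 12 held a gland far from the other 4 by Dixon's criterion at 95%, which flags about 1 in 20 sets by chance. Of these, 10 were the same gland, CLA replicate 3 at 108 h, and genes of 1 gland are not independent. Its log2 CPM was 0.805 for Krt7, 1.17 for Krt8, 1.52 for Krt18, 2.92 for Krt19, 1.26 for Epcam, 1.22 for Cdh1, 0.0757 for Cldn3, −1.37 for Cldn7, −1.47 for Prom2 and −0.395 for Aqp5. The other 2 were control replicate 4 at 132 h, with −0.695 for Cldn7 and 0.042 for Aqp5.

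The effects of CLA and estrogen differed by a test of the difference for 11 values. For CLA at 108 h minus estrogen at 60 h they were, in log2 units, −2.28 for Krt7, −2.25 for Krt19, −2.73 for Epcam, −2.70 for Cdh1, −2.33 for Cldn3, −6.12 for Prom2 and −2.94 for Aqp5. For CLA at 132 h minus estrogen at 84 h they were −2.68 for Cdh1, −2.03 for Cldn3, −5.56 for Prom2 and −2.62 for Aqp5. Agent and time cannot be told apart in these values.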

How the results depend on the processing

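For estrogen the direction of all 10 genes was kept in every alternative run at both times. At 60 h 4 to 10 members were called over the fits that left out 1 gland, and at 84 h 3 to 9. At 84 h 3 were called with no filter on low counts and 0 without the libraries of high skin and hair signal. For CLA at 108 h, where 1 was called, leaving out 1 gland gave 0 to 1. It was 0 without those skin libraries, with limma on log2(RPKM + 0.1) or log2(RPKM + 1), with the 2 groups alone and with the run of title numbers as a term, and 5 with the 20 controls of all times. For CLA at 132 h, where 2 were called, leaving out 1 gland gave 0 to 3. It was 1 with upper-quartile scaling, either RPKM fit or the 2 groups alone, 0 with no filter, without the skin libraries or with the run term, and 5 with the 20 controls.

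For CLA at 108 h minus estrogen at 60 h, leaving out 1 gland gave 5 to 10 called, and for the late pair 2 to 7, with 2 under no filter and 0 without the skin libraries. For the controls across times it gave 1 to 4, with 1 under no filter, 0 without the skin libraries and 1 with the run term. Relative to Epcam, 0 were called in each comparison. Leaving out 1 gland gave 0 to 1 at 60 h, Cdh1 as denominator gave 3 at 60 h, and the Epcam covariate gave 2 at 84 h, 6 at 108 h and 7 at 132 h (1 and 3 without the skin libraries). The cause of these moves was not tested. Some settings also changed the number of glands or of genes tested, and the part of that was not separated.

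Members that were not called with CLA changed sign in some settings. With the 20 controls, Epcam was 0.83, Cdh1 0.10 and Cldn3 0.72 at 108 h, and Cdh1 0.19 at 132 h. Cldn3 was 0.066 with the run term and Aqp5 −0.21 without the skin libraries, both at 108 h. Without the skin libraries at 132 h Cdh1 was 1.30 and Prom2, called lower with all glands, was 1.66 (adjusted p = 0.209). Leaving out 1 gland gave −0.22 to 0.22 for Epcam, −0.17 to 0.25 for Cldn3 and −0.051 to 0.47 for Aqp5 at 108 h, and −0.17 to 0.43 for Epcam and −0.073 to 0.38 for Cldn3 at 132 h. No paired analysis was possible because the labels give no replicate numbers that groups share. Members with counts as low as 3 reads limit precision in the lowest glands.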
